A study of Mus musculus with 12 samples.

Results

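The keratins of the interfollicular epidermis, the epidermis between the hair follicles, were followed as 10 genes in epidermal scrapings of mice with and without epidermal Pparg: Krt5, Krt14, Krt15, Krt1, Krt10, Krt2, Krt77, Krt78, Krt80 and Krt24. The genes were chosen by name, with earlier results of these data known, and all 10 were present among the 14533 genes of the deposited count table. The 12 mice, 1 library each, were C57BL/6 animals of 8 to 13 weeks by the labels, with both Pparg alleles floxed. The 6 Pparg-/-epi mice (4 female, 2 male) carried a Cre recombinase driven by the keratin 14 promoter, and their 6 WT siblings (3 female, 3 male) did not, so effects of Cre and of the deletion cannot be told apart. Skin was untreated and, by the study's account, non-lesional. Dorsal epidermis was frozen and scraped down to the subepidermal vessels, which takes superficial dermis along.

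Keratins are the intermediate filament proteins of epithelial cells. A filament is built from pairs of 1 acidic type I and 1 basic type II chain, so each cell layer is known by a pair: Krt5 with Krt14 (and Krt15) in the dividing basal layer, Krt1 with Krt10 in the differentiating layers above it. PPARγ, the product of Pparg, is a nuclear receptor that pairs with RXR and is known for its part in lipid metabolism and in sebocytes, the lipid-producing cells of the sebaceous gland. The comparison of the genotypes asks which of these chains differ when the epidermis lacks Pparg, and whether the partners of a pair differ together.

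Krt14 was higher by 0.98 on the log2 scale (the log2 fold change) in Pparg-/-epi mice, and Krt15, the other basal type I chain, was lower, as was the scarce Krt24. Krt5, the type II partner of both, did not pass the test, and neither did Krt10. Of the summed basal type I chains, Krt15 made up 56.0% ± 9.23 (SD, n = 6) in WT mice and 16.0% ± 4.89 in Pparg-/-epi mice. The sum of Krt14 and Krt15 relative to Krt5, chosen after the values were seen and not tested, overlapped between the groups. In the suprabasal layers the ratio of Krt10 to Krt1 was lower in every Pparg-/-epi mouse than in any WT mouse, and the ratio of Krt10 to Krt77, another type II chain, was higher.

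The 4 type I genes of the set lie on chromosome 11 of mm10 and the 6 type II genes on chromosome 15, all on the minus strand. Krt14 spans 100203162 to 100207510 and Krt15 spans 100131759 to 100135949, while Krt10 and Krt24 lie at 99385256 to 99389364 and 99280093 to 99285238. Krt5 spans 101707070 to 101712891, Krt2 101810689 to 101818169, Krt1 101845426 to 101850786, Krt77 101859856 to 101869618, Krt78 101946004 to 101954287 and Krt80 101349571 to 101370125. Since the authors removed reads that map to several places, a read pair that lay wholly within sequence shared by a keratin and a relative was not counted, while a pair with 1 end in unique sequence could be. Of the 75-base stretches of the Krt14 transcript, 5.91% also occur in Krt16, a type I keratin of injured or inflamed epidermis. For Krt5 it was 5.18%, shared with Krt6a, Krt6b, Gm5414 and Gm5478, and for the remaining 8 genes no stretch was shared. The longest run shared by Krt14 and Krt16 has 134 bases and lies in the coding part of exon 1 of Krt14 (chr11:100207017-100207150, minus strand, mm10), and it is shown because a read pair wholly inside it could not tell the altered Krt14 from Krt16:
Krt14 and Krt16 shared run: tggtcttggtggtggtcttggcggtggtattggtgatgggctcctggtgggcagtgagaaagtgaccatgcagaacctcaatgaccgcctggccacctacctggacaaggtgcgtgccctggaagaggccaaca

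The RefSeq promoter windows (GRCm38.p6, 250 bases before to 50 after the start) held 7 of the 10 genes: Krt24, Krt10, Krt14, Krt5, Krt2, Krt77 and Krt78. The Krt14 window belongs to a start inside the gene and is not shown, though it counts among the 7. Krt15 had no window, so of Krt14, Krt15 and Krt24 only Krt24 was searched at its own start. The windows were searched for 4 motifs: TATAA on the gene strand between 20 and 40 bases before the start, and on both strands AGGTCA (the hexamer bound by nuclear receptors such as PPARγ), AGGTCANAGGTCA (2 hexamers with 1 base between them, the element of PPAR and RXR) and GCCNNNGGC (AP-2). The longer PPAR element contains the hexamer. TATAA was found in 3 of the 7 windows (Krt24, Krt10 and Krt2), against 3.52% of the 32851 windows of all genes, and AGGTCA in 3 of 7 (Krt24, Krt5 and Krt78), against 16.3%. AGGTCANAGGTCA was in none of the 7 (0.0396% of all windows), and neither was GCCNNNGGC (16.6%). The windows of Krt24, which was lower, and of Krt10 and Krt5, which did not pass the test, are printed on the gene strand with these motifs in capitals, where TGACCT is AGGTCA read on the other strand:
Krt24 (chr11:99285213-99285512, minus strand): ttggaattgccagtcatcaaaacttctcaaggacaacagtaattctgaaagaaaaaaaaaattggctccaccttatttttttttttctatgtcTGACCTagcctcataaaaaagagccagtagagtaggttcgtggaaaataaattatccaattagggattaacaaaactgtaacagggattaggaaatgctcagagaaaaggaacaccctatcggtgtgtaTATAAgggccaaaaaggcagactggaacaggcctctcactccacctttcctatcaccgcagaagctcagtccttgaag
Krt10 (chr11:99389315-99389614, minus strand): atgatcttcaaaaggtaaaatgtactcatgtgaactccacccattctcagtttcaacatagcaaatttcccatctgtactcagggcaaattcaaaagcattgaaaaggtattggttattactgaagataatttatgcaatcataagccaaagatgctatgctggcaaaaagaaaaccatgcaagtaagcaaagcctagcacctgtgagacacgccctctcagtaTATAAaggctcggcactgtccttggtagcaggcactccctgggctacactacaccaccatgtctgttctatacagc
Krt5 (chr15:101712856-101713155, minus strand): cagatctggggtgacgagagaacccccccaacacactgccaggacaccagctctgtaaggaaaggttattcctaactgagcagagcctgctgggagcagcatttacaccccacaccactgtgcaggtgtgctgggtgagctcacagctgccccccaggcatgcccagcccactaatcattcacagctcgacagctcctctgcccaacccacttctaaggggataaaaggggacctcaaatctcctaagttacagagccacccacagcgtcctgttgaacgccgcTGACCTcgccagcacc

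Krt24 holds TATAA 28 bases before its start and the hexamer 157 bases before it. In Krt10 TATAA lies 26 bases before the start, and in Krt5 the hexamer begins 34 bases after it. These are matches of letters in short windows, and no binding was measured.

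Total counts per library were 10120840 to 16947632 in WT mice, against 11272135 to 18851255 in Pparg-/-epi mice, and the 10 keratins took 2.23% to 4.84% and 3.22% to 5.23% of them. Values are given as CPM, counts brought to the same library total with TMM factors, and 3 counts were worth 0.156 to 0.320 CPM. Pparg itself had 5 to 269 counts in WT mice, against 16 to 107 in Pparg-/-epi mice, and its log2 difference was -0.10 (adjusted p = 0.949). Cre removes only a part of the gene, and the counts cover all of it, so they do not check the deletion. WT replicate 2 stood apart: its 10 keratins summed to 20021 CPM, against 40363 to 50225 CPM in the remaining WT mice and 29478 to 54615 CPM in Pparg-/-epi mice. Among WT mice, replicate 2 had the highest sums of follicle bulge, sebocyte, endothelium, leukocyte and adipocyte markers. Its sum of the 34 other keratin genes was also the highest WT value, at 4660 CPM against 1940 CPM or less. In scraped tissue, fewer cells of a type and less RNA per cell cannot be told apart. With 1 library per mouse, p-values reflect the spread between mice.

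The genotypes were tested with edgeR's quasi-likelihood test on all 14533 genes with Benjamini-Hochberg adjustment, and a gene was called altered where its adjusted p was under 0.05 and its log2 fold change (log2FC, Pparg-/-epi over WT, with its standard error, SE) was 0.6 or more in size. By this rule 3 of the 10 keratins were altered: in Pparg-/-epi mice, 1 was higher and 2 were lower. Of all genes tested, 10.3% were altered, 5.19% higher and 5.08% lower. The median log2FC was -0.27 over the 10 keratins and -0.01 over all genes. The same 3 keratins were those without overlap between the 6 mice of each group, which held for 7.90% of all genes, 3.95% in each direction.

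**Figure D1:**
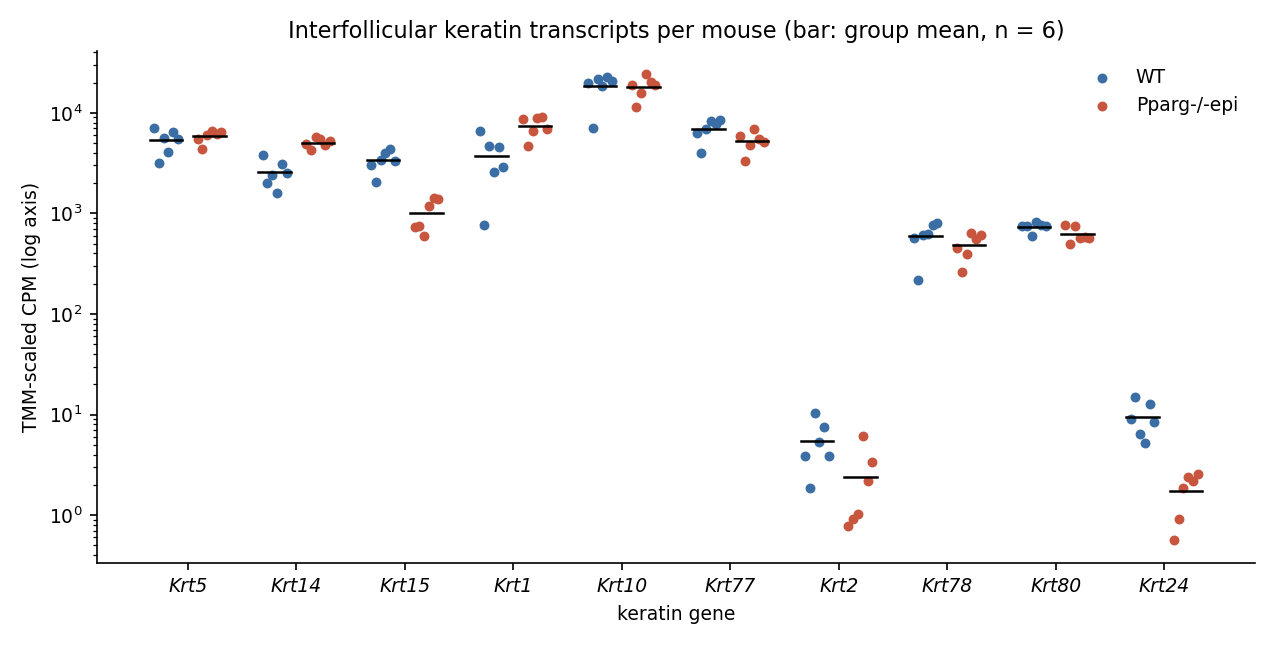
TMM-scaled CPM of the 10 keratins on a log axis, 1 point per mouse, with WT in blue, Pparg-/-epi in red and a bar at the mean of the 6 mice. The groups are separate for Krt14, Krt15 and Krt24, Krt10 is the highest gene in both groups, and the low WT point of Krt10, Krt1 and Krt78 is WT replicate 2.

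Krt14, a type I chain of basal keratinocytes, ranged from 1585 to 3767 CPM in WT mice (median 2478) and from 4301 to 5691 CPM in Pparg-/-epi mice (median 5071). Every Pparg-/-epi mouse had more than the highest WT mouse. The mean rose from 2565 ± 774 to 5064 ± 516 CPM (SD, n = 6), a log2FC of 0.98 (SE 0.20, adjusted p = 0.00559). Krt16, with which Krt14 shares the run above, averaged 53.2 ± 52.3 CPM in WT mice and 400.5 ± 132 CPM without epidermal Pparg, and its part in the Krt14 result was not tested.

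Krt15, a type I chain of basal cells that is also used as a marker of the follicle bulge, ranged from 2058 to 4407 CPM in WT mice (median 3377) and from 600 to 1423 CPM in Pparg-/-epi mice (median 961). The lowest WT mouse was again replicate 2, and it still lay above the highest Pparg-/-epi mouse. The mean fell from 3370 ± 817 to 1011 ± 365 CPM, a log2FC of -1.74 (SE 0.26, adjusted p = 0.00106). Of 7 other genes listed as bulge markers, 1 was lower (Fgf18, a growth factor, log2FC -3.96, adjusted p = 8.94e-04) and 6 did not pass the test. Cd34 and Sox9, the most abundant of the list per kilobase, had log2FC values of -0.32 (adjusted p = 0.783) and 0.74 (adjusted p = 0.321). The summed bulge markers were 76.7 to 631 CPM in WT mice, against 165 to 406 CPM in Pparg-/-epi mice, and their part in the Krt15 result was not tested.

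Of the 6 WT mice, 4 share the first number of their mouse name, and no Pparg-/-epi mouse has it. Pparg-/-epi replicates 8 and 9 share a first number, and so do replicates 11 and 12. The tests took each mouse as independent. Another first number is shared by 1 mouse of each group, WT replicate 2 and Pparg-/-epi replicate 10, too few for a comparison within it. Against the other 2 WT mice alone, replicates 1 and 2, the log2FC of Krt14 was 0.82 (adjusted p = 0.161) and that of Krt15 -1.31 (adjusted p = 0.0816), both no longer past the threshold, while 389 of all genes were still altered.

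Krt5, the type II partner of both, ranged from 3155 to 7013 CPM in WT mice (median 5577) and from 4404 to 6615 CPM in Pparg-/-epi mice (median 6107). The Pparg-/-epi range lay inside the WT range. The log2FC of 0.14 (SE 0.20, adjusted p = 0.690) had a 95% interval from -0.29 to 0.58.

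Partner chains were compared per mouse as ratios of counts per kilobase of gene length, which do not depend on library size. Each of 9 ratios was tested by an exact two-sided permutation of its log2 value over all 924 splits of 6 and 6 mice, with Benjamini-Hochberg adjustment over the 9 ratios, and the smallest unadjusted p this allows is 0.00216. The ratio of Krt14 to Krt5 was 0.514 to 0.840 in WT mice (median 0.620) and 1.01 to 1.29 in Pparg-/-epi mice (median 1.13). The log2 difference was 0.85 (SE 0.12, adjusted exact p = 0.00325). By the listed gene lengths, Krt14 was below Krt5 in each WT mouse and above it in each Pparg-/-epi mouse. The lowest Pparg-/-epi mouse, at 1.01, was close to equality. Which chain is the higher depends on the lengths used, while the difference between the genotypes does not. The ratio of Krt15 to Krt5 was 0.545 to 1.25 in WT (median 0.804) and 0.127 to 0.291 in Pparg-/-epi mice (median 0.221), a log2 difference of -1.96 (SE 0.24, adjusted exact p = 0.00325).

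The ratio of Krt15 to Krt14 separated the genotypes most among the 9 ratios: its log2 difference was -2.81 (SE 0.32, adjusted exact p = 0.00325). It was 0.769 to 2.44 in WT mice (median 1.32) and 0.102 to 0.287 in Pparg-/-epi mice (median 0.187). As a share of the 2 basal type I chains, Krt15 lay between 43.5% and 70.9% in WT mice and between 9.23% and 22.3% in Pparg-/-epi mice. The summed ratio of Krt14 and Krt15 to Krt5, chosen after the single values were seen and not tested, was 1.25 to 1.77 in WT (mean 1.48 ± 0.201) and 1.30 to 1.504 in Pparg-/-epi mice (mean 1.37 ± 0.0726). All 6 Pparg-/-epi mice lay within the WT range of this sum. The log2 difference of this summed ratio was -0.11 (SE 0.08).

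**Figure D2:**
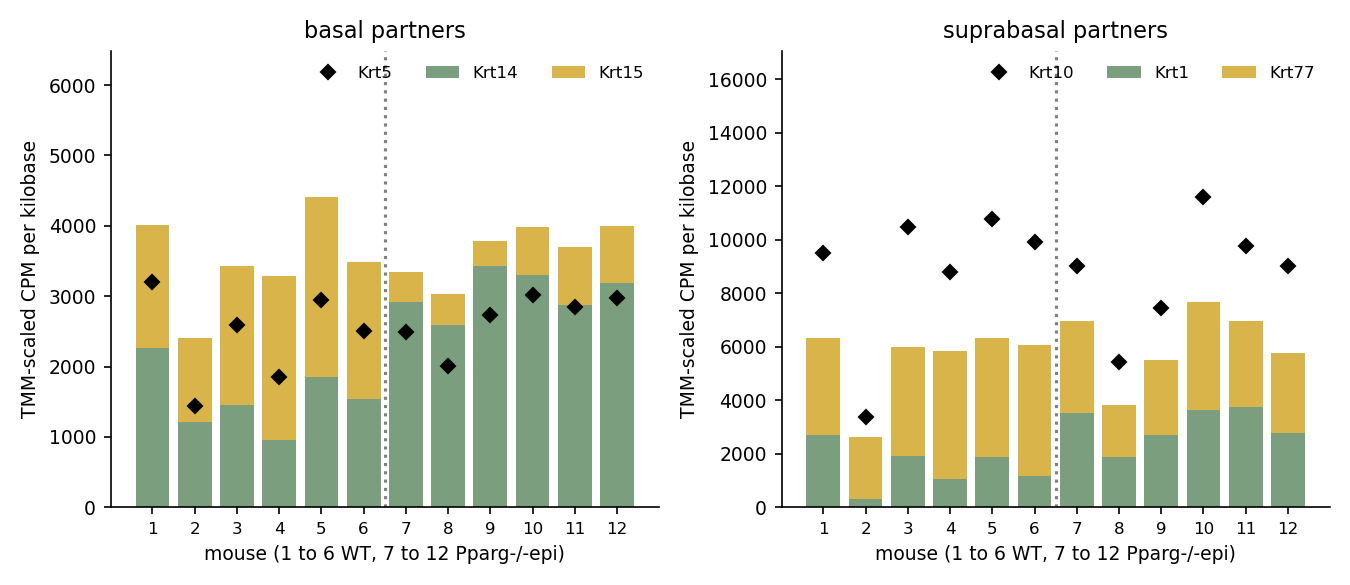
TMM-scaled CPM per kilobase in each mouse for the basal chains (left) and the suprabasal chains (right), with WT mice 1 to 6 left of the dotted line and Pparg-/-epi mice 7 to 12 right of it. Stacked bars hold Krt14 and Krt15, or Krt1 and Krt77, and diamonds show the partner Krt5 or Krt10: the Krt15 part shrinks from a mean share of 56.0% to 16.0% and the Krt1 part grows from 25.6% to 49.9%.

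Krt10, the type I chain of the suprabasal layers, had the highest level per kilobase of the 10 genes in both groups. It ranged from 7097 to 22516 CPM in WT mice (median 20295) and from 11334 to 24286 CPM in Pparg-/-epi mice (median 18865). The lowest value was that of WT replicate 2, and the remaining WT mice had 18427 CPM or more. The log2FC was -0.02 (SE 0.28, adjusted p = 0.983), with a 95% interval from -0.63 to 0.60.

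Krt1, the classical type II partner of Krt10, ranged from 760 to 6590 CPM in WT mice (median 3737) and from 4644 to 9155 CPM in Pparg-/-epi mice (median 7734). In 5 of the 6 Pparg-/-epi mice Krt1 was above the highest WT mouse. The means were 3688 ± 2033 and 7469 ± 1760 CPM, and the log2FC of 1.02 (SE 0.39) did not pass the test (adjusted p = 0.101). It did without WT replicate 1 (1.26, adjusted p = 0.0478), without WT replicate 2 (0.79, adjusted p = 0.0455), with sex in the model (1.31, adjusted p = 0.0333) and with DESeq2 (1.02, adjusted p = 0.0291).

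Krt77, a second type II chain of the suprabasal epidermis, ranged from 3962 to 8405 CPM in WT mice (median 7319) and from 3285 to 6906 CPM in Pparg-/-epi mice (median 5317). The groups overlapped widely. The log2FC was -0.39 (SE 0.22, adjusted p = 0.256), and without WT replicate 2 it was -0.53 (adjusted p = 0.0559).

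The ratio of Krt10 to Krt1 was 3.53 to 10.9 in WT mice (median 7.05) and 2.55 to 3.23 in Pparg-/-epi mice (median 2.81), without overlap. Its log2 difference was -1.21 (SE 0.24, adjusted exact p = 0.00325), and its spread on the log2 scale was 0.58 (SD) in WT mice and 0.14 in Pparg-/-epi mice. The ratio of Krt10 to Krt77 was 1.47 to 2.60 in WT (median 2.22) and 2.61 to 3.05 in Pparg-/-epi mice (median 2.86), and the log2 difference was 0.43 (SE 0.14, adjusted exact p = 0.00325). Here the highest WT mouse and the lowest Pparg-/-epi mouse were almost equal.

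With the ratio of Krt10 lower to the first of these type II chains and higher to the second, their balance was described directly, as a quantity chosen after the values were seen. The ratio of Krt1 to Krt77 was 0.135 to 0.738 in WT mice (mean 0.372 ± 0.221) and 0.909 to 1.16 in Pparg-/-epi mice (mean 0.998 ± 0.0892), without overlap. Krt1 thus made up 25.6% ± 11.2 (SD, n = 6) of both in WT mice and 49.9% ± 2.15 in Pparg-/-epi mice. The sum of Krt1 and Krt77 relative to Krt10 was 0.571 to 0.771 in WT mice, against 0.638 to 0.774 in Pparg-/-epi mice, with overlapping groups. The log2 difference of this summed ratio was 0.13 (SE 0.08) and was not tested. The WT share of Krt1 was lowest in replicate 2 (11.9%) and highest in replicate 1 (42.5%).

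Across the layers, the ratio of the suprabasal Krt1 to the basal Krt5 was 0.216 to 0.841 in WT (median 0.60) and 0.939 to 1.42 in Pparg-/-epi mice (median 1.10). The log2 difference was 1.07 (SE 0.31, adjusted exact p = 0.00325), and without WT replicate 2 it was 0.81. The ratio of Krt10 to Krt14, the type I chains of the 2 layers, was 2.80 to 9.23 in WT (median 6.14) and 2.09 to 3.52 in Pparg-/-epi mice (median 2.96), with overlap and a log2 difference of -0.99 (SE 0.28, adjusted exact p = 0.0146). Summed over all 10 genes, type I to type II chains stood at 1.28 to 1.53 in WT (median 1.45) and 1.23 to 1.41 in Pparg-/-epi mice (median 1.34). This difference of -0.10 on the log2 scale (SE 0.05) did not pass the test (adjusted exact p = 0.0909), but it did without WT replicate 2 (-0.13, adjusted exact p = 0.0281). Against the 2 WT mice without the shared first number in their name, only 28 splits exist, so the smallest unadjusted p is 0.0357, and a ratio can pass after adjustment only if most of the 9 reach it. This was reached by 6 of the 9, all with an adjusted exact p of 0.0536, among them Krt15 to Krt5 (-1.69), Krt10 to Krt1 (-1.12) and Krt1 to Krt5 (1.39), and none passed.

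**Figure D3:**
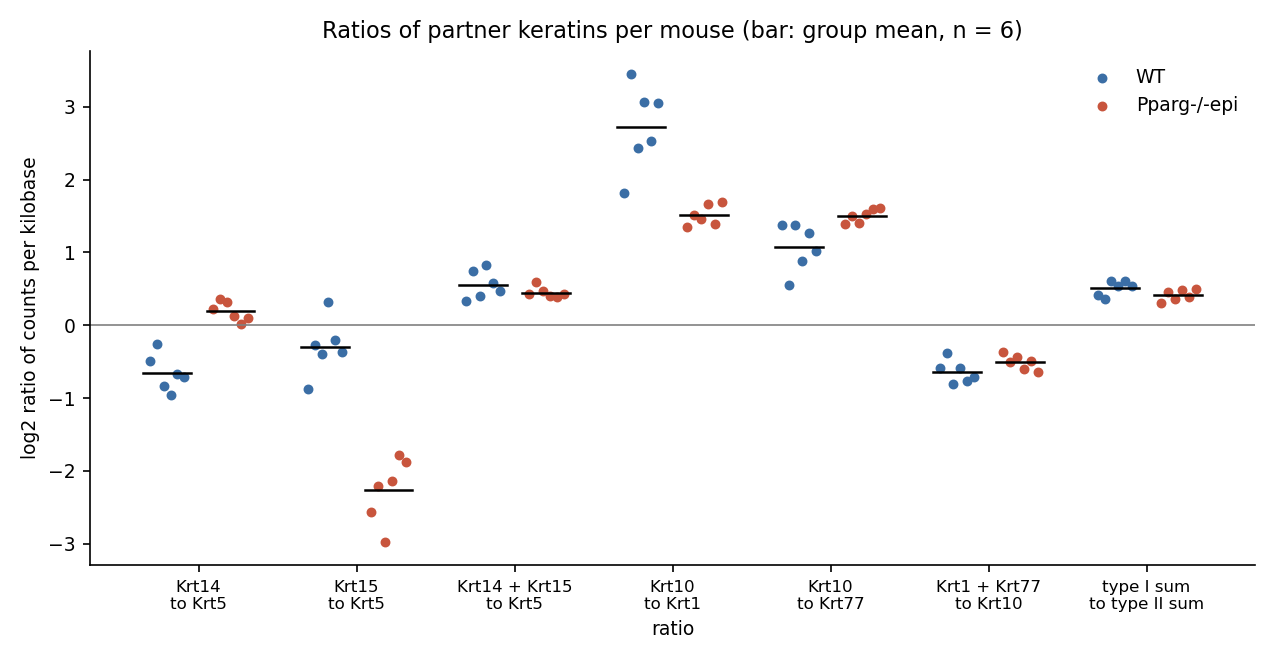
Log2 ratios of counts per kilobase, 1 point per mouse (WT blue, Pparg-/-epi red, bar at the mean of 6). The 4 plotted ratios of single chains do not overlap between the genotypes, and the 3 ratios that use sums overlap. Means are apart by 0.85 for Krt14 to Krt5 and -1.21 for Krt10 to Krt1 on the log2 scale. Krt10 to Krt2 and Krt10 to Krt14, single-chain ratios that are not plotted, overlap as well.

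Krt2, a type II chain of the uppermost living layers that is known mainly from ear, tail and sole skin of mice, was scarce in this dorsal skin. It had 35 to 97 counts in WT mice (1.86 to 10.3 CPM, median 4.61) and 15 to 73 counts in Pparg-/-epi mice (0.780 to 6.07 CPM, median 1.60). Pparg-/-epi replicate 10 alone had 73 counts. The log2FC of -1.20 (SE 0.55, adjusted p = 0.162) did not pass the test, but it did without that mouse (-1.74, adjusted p = 0.0412). It was -0.69 with RIN, the RNA integrity number, in the model (adjusted p = 0.407) and -0.26 against the 2 WT mice without the shared first number (adjusted p = 0.885). The ratio of Krt10 to Krt2 was 2648 to 6744 in WT mice, against 4996 to 30174 in Pparg-/-epi mice, a log2 difference of 1.45 (SE 0.44, adjusted exact p = 0.0111) with overlapping groups.

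Krt24, a type I keratin, was the other scarce gene, with 60 to 283 counts in WT mice (5.18 to 15.02 CPM, median 8.72) and 11 to 31 counts in Pparg-/-epi mice (0.572 to 2.58 CPM, median 2.02). No Pparg-/-epi mouse reached the lowest WT mouse. The log2FC was -2.45 (SE 0.39, adjusted p = 0.00154), the strongest fall among the 10 genes, at a level where it adds little to the keratin sum. Of the 3 altered keratins, it was the 1 that stayed altered against the 2 WT mice without the shared first number (-2.78, adjusted p = 0.0170). WT replicate 2, the highest of all mice, had 283 counts, and without it the log2FC was -2.29.

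Krt78, a type II chain of differentiating keratinocytes, ranged from 219 to 801 CPM in WT (median 623) and from 264 to 645 CPM in Pparg-/-epi mice (median 502.5). Its log2FC was -0.30 (SE 0.28, adjusted p = 0.537). Krt80, a type II chain of differentiated epithelial cells, ranged from 592 to 821 CPM in WT (median 753) and from 499 to 760 CPM in Pparg-/-epi mice (median 578). Its log2FC was -0.25 (SE 0.12, adjusted p = 0.205), with a 95% interval from -0.52 to 0.02. Neither gene separated the genotypes.

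**Figure D4:**
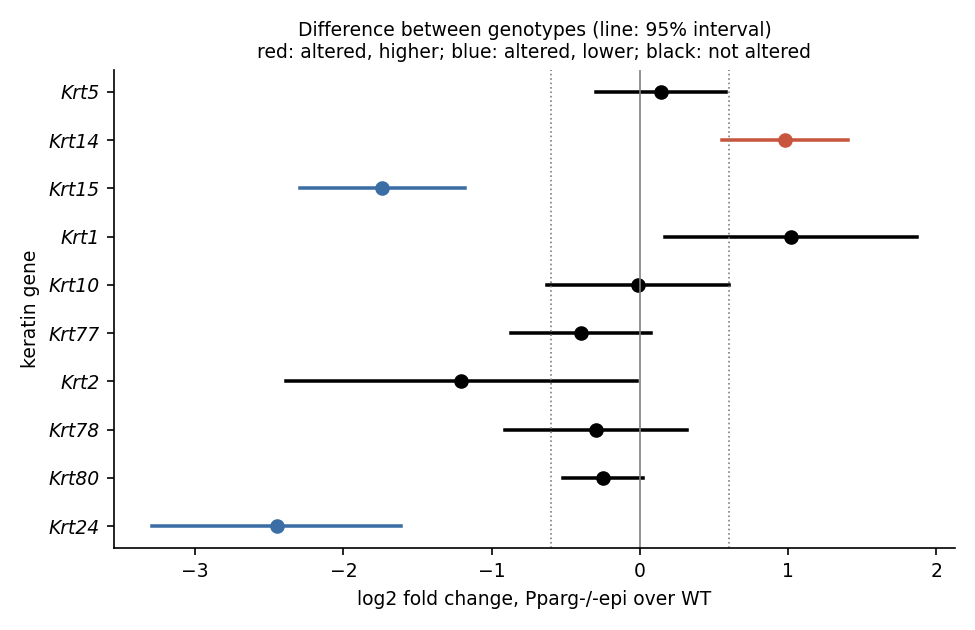
Log2FC of each keratin, Pparg-/-epi over WT, with its 95% interval from the quasi-likelihood fit, and dotted lines at the threshold of 0.6 in either direction. Krt14 (0.98, red) was altered upwards and Krt15 (-1.74, blue) and Krt24 (-2.45, blue) downwards, while the 7 genes in black were not altered.

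Ordered by mean CPM per kilobase, the WT mice had Krt10 (8806), Krt77 (4025), Krt5 (2423), Krt15 (1959), Krt14 (1545), Krt1 (1507), Krt80 (416), Krt78 (174), Krt24 (5.62) and Krt2 (2.09). In Pparg-/-epi mice the order was Krt10 (8712), Krt77 (3062), Krt1 (3052), Krt14 (3051), Krt5 (2679), Krt15 (588), Krt80 (350), Krt78 (142), Krt24 (1.04) and Krt2 (0.913). Krt15 moved from rank 4 to rank 6 and Krt1 from rank 6 to rank 3. In the WT order the neighbours from Krt5 to Krt1 each lay closer together than 1 SD between mice, and in the Pparg-/-epi order the same held for Krt77, Krt1 and Krt14 and for Krt24 and Krt2.

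After each group mean was taken off, Krt10 moved from mouse to mouse with Krt78 (Pearson's r = 0.96 over 12 libraries), Krt77 (0.91) and Krt1 (0.89), and Krt5 with Krt1 (0.91) and Krt14 (0.82). These values rest in part on WT replicate 2, which was the lowest WT mouse for Krt5, Krt1, Krt10, Krt77 and Krt78. Without it, r was 0.89, 0.84 and 0.63 for Krt10 with Krt78, Krt77 and Krt1, and 0.82 and 0.89 for Krt5 with Krt1 and Krt14. Krt14 and Krt15 showed no such relation within the groups (0.06, and -0.12 without WT replicate 2). Krt80 had values between -0.45 and 0.28 with each of the other 9 keratins.

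Among genes outside the set with a mean of 10 CPM or more, the 2 most like each keratin over the 12 libraries had Pearson's r between 0.887 and 0.974 and Spearman's rho between 0.755 and 0.986, as the highest of many genes compared. For Krt5 they were Slc39a7 and Tuba8, for Krt78 2310050C09Rik and Sbsn, for Krt77 Ppl and Susd2, for Krt1 Tuba4a and Asns, for Krt2 Serf2 and Paip2 and for Krt80 Gsk3b and Pdzd2, and Gltp was the most like Krt10. The 3 altered keratins were most like genes whose groups did not overlap either: Capg and Lce1g for Krt14, Ifitm6 and Daglb for Krt15, Acsl5 and Ighmbp2 for Krt24. Choosing by r over both groups favours such genes, which were 7.90% of all genes. For these 6 genes r fell to between 0.642 and 0.855 once the group means were taken off. The points share library, depth and scraping, and no test was made.

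Genes of related function are set beside the 10.3% of all genes that were altered. Of 11 other genes of the basal layer, 1 was higher (Cdh3, P-cadherin, log2FC 0.69, adjusted p = 0.0122) and none lower, with a median of -0.15. Col17a1, a collagen of the hemidesmosome, and Trp63, the transcription factor of basal cells, had log2FC values of -0.30 and -0.15 (adjusted p = 0.213 and 0.349). Of 12 measured genes of suprabasal differentiation, 2 were higher: Ivl, the cornified envelope protein involucrin, by 1.00 (adjusted p = 2.32e-04) and Calml3, a calmodulin-like protein, by 0.97 (adjusted p = 3.45e-04) on the log2 scale. The median of the 12 was -0.03. Dsg1a, with a log2FC of -0.598 (adjusted p = 0.0310), fell just short of the fold threshold of 0.6. Krtdap and Sbsn, the most abundant per kilobase of this list, had log2FC values of -0.26 and -0.43 (adjusted p = 0.645 and 0.333).

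None of 12 genes listed for keratin filament attachment was altered in edgeR's quasi-likelihood test (median -0.16), and 0 had an unadjusted p under 0.05. Neither the likelihood ratio test nor DESeq2 called any of them. The desmosome proteins Dsp and Pkp1, the highest of them per kilobase, had log2FC values of -0.0015 and 0.17 (adjusted p = 0.997 and 0.464). None of 11 transcription factors known to act on keratin genes was altered either (median 0.03), by these 3 tests, and 4 had an unadjusted p under 0.05. In the quasi-likelihood test Tfap2a (log2FC 0.50, adjusted p = 0.00257) and Nr3c1 (-0.36, adjusted p = 0.0207) missed only the fold threshold of 0.6. Klf4 and Cebpa, the most abundant per kilobase, had log2FC values of -0.04 and 0.14 (adjusted p = 0.951 and 0.647). Of the 34 remaining keratin genes of the table, 7 were higher (5.19% of all genes) and none was lower (5.08% of all genes), and the median was 1.38. Among them Krt17 and Krt79, follicle keratins and the most abundant per kilobase, rose by 1.79 and 2.70 (adjusted p = 0.00117 and 0.0168).

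Markers of other cell types varied between the libraries. Of 5 sebocyte markers 4 were lower, and their sum was 18.97 to 866 CPM in WT mice, against 1.58 to 9.70 CPM in Pparg-/-epi mice, with Fa2h and Scd3, the most abundant of them, at means of 0.478 and 0.473 CPM in the latter. Of 5 leukocyte markers 1 was lower (Cd3e, a T cell gene, log2FC -0.75, adjusted p = 0.0325). No marker of fibroblasts (6), endothelium (4), skeletal muscle (5), melanocytes (3) or adipocytes (3) was altered in edgeR's quasi-likelihood test. Among these markers 4, all of skeletal muscle, had an unadjusted p under 0.05, and the likelihood ratio test called 1, Mylpf, a myosin light chain of muscle, while DESeq2 called none. Fibroblast markers reached 34533 CPM in WT replicate 1 and muscle markers 8052 CPM in WT replicate 5. Without WT replicates 2 and 5 and Pparg-/-epi replicate 8, the libraries that stood apart in the keratin sum or held the most muscle transcript (an alternative chosen after seeing the data), the same 3 keratins were altered, with log2FC values of 1.00 for Krt14, -1.71 for Krt15 and -1.95 for Krt24.

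Sex was tested as an interaction with genotype. By edgeR's quasi-likelihood test of the interaction no keratin passed (adjusted p of 0.895 or higher), and 0 of the 10 had an unadjusted p under 0.05. The lowest unadjusted p was that of Krt1 (0.0863), whose log2FC was 1.79 among females and 0.56 among males. WT replicate 2, the lowest mouse for Krt1 (760 CPM), is a female, and the male value rests on 2 Pparg-/-epi mice.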

How the data were processed

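Dorsal epidermis of 12 mice, 6 WT and 6 Pparg-/-epi, was profiled by mRNA sequencing with 1 library per mouse. The authors aligned reads to mm10 with STAR 2.5.2b, discarded poorly mapped reads and those with several positions, and counted the rest per gene with featureCounts (Subread 1.5.1). The deposited values are these raw counts, without normalization. The table lists 14533 genes, and 2800 blank rows without values were dropped. The listed genes all exceed 0.5 CPM in 6 mice or more and were not filtered again. Groups came from the sample labels, and 2 libraries whose labels hold no mouse name were tied to their columns through a sequencing sheet of the study, which bears only on their sex, age and RIN.

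Counts were normalized with TMM factors and compared with edgeR 4.0.16 (quasi-likelihood test, genotype only, Benjamini-Hochberg over all genes) in R 4.3.3. Standard errors were derived from the fold change and its F statistic. The likelihood ratio test that the study names and DESeq2 1.42.0 were alternatives. Ratios used counts per kilobase of the gene length in the table and exact permutation tests. Both procedures were tested on simulated data. Named genes were the 10 keratins, Pparg, the 2 genes most correlated with each keratin (log2 of CPM plus 1), the 2 highest genes per kilobase and the altered genes of the companion lists, and the most abundant markers where a list is discussed. Krt16 and the further keratins were added because a result turned on them. A gene that this rule picked is not reported here. The members and lists were chosen with earlier results of these data known. The floor of 3 counts covers counting error only. Plots used matplotlib 3.10.9 (Python 3.11.15). Sequences are from RefSeq (GRCm38.p6) and the mm10 genome.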

Additional observations from a re-analysis of the deposited data

Results flagged for a closer look

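Of 38 groups of 6 mice checked (10 keratins and 9 ratios in both genotypes), 3 held a mouse far from the others by Dixon's criterion for the gap to the nearest mouse (critical value 0.625), and chance alone gives about 1 in 20. WT replicate 2 was the lowest WT mouse for Krt10, at 12.79 log2 CPM with a gap of 0.826 of the range, and for Krt78, at 7.78 log2 CPM with a gap of 0.731. WT replicate 3 was the lowest WT mouse for Krt80, at 9.21 log2 CPM with a gap of 0.694. None of these 3 genes was altered with or without the mouse in question.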

How the results depend on the processing

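Krt24 was altered in all 23 alternative fits of the counts, and Krt14 and Krt15 in 22 of 23, with log2 fold changes from -2.80 to -1.95, 0.82 to 1.25 and -1.86 to -1.31. The exception was the fit without the 4 WT mice that share the first number of their name, in which 1 keratin in place of 3 was altered. Leaving out single mice gave 3 to 4. Without those 4 mice the log2 differences of the ratios were 0.57 for Krt14 to Krt5, -1.69 for Krt15 to Krt5, -2.25 for Krt15 to Krt14, -1.12 for Krt10 to Krt1, 1.16 for Krt10 to Krt2, 0.54 for Krt10 to Krt77, 1.39 for Krt1 to Krt5 and -0.29 for Krt10 to Krt14. None of these 8 passed with the 28 splits that remained, where 6 of 9 ratios were at the smallest possible p (0.0357, adjusted 0.0536), and type I to type II chains turned to 0.0257. That last difference was between -0.131 and -0.0778 when single mice were left out. Log2 and linear ratios, and permutations within sex, gave the same calls.

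Krt10, whose log2 fold change was near 0, turned positive with sex (0.06) or RIN (0.25) in the model, in females alone (0.09) and without the 4 WT mice (0.45), and was between -0.20 and 0.07 with each mouse left out. Krt78 turned to 0.04 with RIN and 0.33 without the 4 WT mice, and Krt77 to 0.05 without them. None of these passed the test. Krt2 fell out at a mean CPM of at least 5. Of all genes, 1493 were altered in the reported fit, 2249 without WT replicate 2, 651 in females alone and 389 without the 4 WT mice, and the causes were not tested. Other scaling factors moved the median of all genes by at most 0.0035 on the log2 scale. The low counts of Krt2 (15 to 97) and of Krt24 in Pparg-/-epi mice (11 to 31) limit their precision. No paired analysis was possible because the groups share no replicate numbers, and a first number of the mouse name ties only 1 mouse of each group.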
